A study of Gallus gallus with 2 samples.

Results

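T cell receptor complex and T cell signalling genes were followed in DT40, a B cell lymphoma line derived from the chicken bursa of Fabricius. The members were chosen by gene symbol, as all probe sets that the array annotation assigns to CD3D, CD3E, CD247, CD4, CD28, CD5, LCK, ZAP70, TCF7 or BCL11B. Of these 10 genes, 9 had a probe set, out of 13051 genes with a probe set of their own, and their 11 probe sets are all described. TCF7 was not analysed here, since no probe set in the annotation used here carries its symbol. There were 2 Affymetrix chicken arrays, 1 per group. The first was hybridised with total RNA of a clone in which H2A.Z-2 was knocked out for good and H2A.Z-1 came only from a transgene that tetracycline switches off, taken after 3 days of tetracycline (2 mg/ml, as the labels write it). The other array held RNA of a wild-type DT40 clone, for which the title names no drug although the tetracycline protocol is listed with both samples. Whether these cells also received it is unclear, so genotype and clone, and possibly the drug, cannot be told apart. H2A.Z is a variant of histone H2A found in nucleosomes near many gene starts. The comparison asks which transcripts differ between the clone labelled double knockout, after 3 days of tetracycline, and wild-type cells.

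T cells read antigen through a receptor whose variable chains have no signalling tail of their own. That task falls to the CD3 chains and to CD247, the zeta chain, whose tyrosine motifs are phosphorylated by the kinase LCK and then bind the kinase ZAP70. CD4 brings LCK to the receptor, CD28 adds a second activating signal, CD5 dampens the response, and TCF7 and BCL11B are transcription factors that set T cell fate in mammals. Birds carry a combined CD3 gamma/delta gene, listed here as CD3D, where mammals have separate CD3D and CD3G genes. B cells use related parts, with CD79A and CD79B in the place of the CD3 chains, LYN in that of LCK and SYK in that of ZAP70.

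Each value is a MAS5 signal, the brightness of a probe set on a linear scale. Both arrays had been scaled alike, with a trimmed mean of 500.2 on each array. A floor was set at the median of all signals, 58.3, and a gene was called measured where its brightest probe set passed the floor on either array. The floor is not a detection call, and a signal under it gives only a bound. Both targeted genes were far dimmer on the array labelled knockout, with signals of 387 in the knockout and 27331 in wild type for H2A.Z-1 (H2AFZ) and 17.6 in the knockout and 18244 in wild type for H2A.Z-2 (H2AZ2). The H2A.Z-1 signal in the knockout was still above the floor, and H2A.Z protein was not measured on these arrays. Whether their probes lie in the removed parts of the H2A.Z genes was not analysed here. Since each group had 1 array, no difference has a replicate check or a test, and the precision is limited by that number. The only error available was the disagreement between probe sets of a gene, measured in genes with 2 probe sets that passed the floor on each array. As an SD of the log2 ratio, it was 0.51 at mean signals up to 200 (416 genes) and 0.25 above 3000 (240 genes). It does not hold the spread between cultures or clones. The RNA controls differed between the arrays. The ratio of 3′ to 5′ signal for actin was 1.95 in the knockout and 1.13 in wild type. For EF1A it was 1.46 in the knockout and 1.23 in wild type. For GAPDH it was 1.07 in the knockout and 1.03 in wild type. The part of this difference in the values below was not tested.

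The label of the group, T cell genes transcribed in DT40, was borne out for only some of them. CD3D and CD247 stood well above the floor on both arrays. CD3E, CD5, ZAP70 and BCL11B lay within 1.7-fold of the floor wherever they passed it, and CD4, CD28 and LCK were under it on both arrays. Most genes of a B cell list were bright, with CD79B, a signalling chain of the B cell receptor, at 7718 in the knockout and 8827 in wild type. Others were dim: BLK had 12.6 in the knockout and 14.7 in wild type, PAX5 76.3 and 126, and CXCR5 6.25 and 121, in the same order. DT40 RNA thus held a strong signal for 2 signalling chains of the T cell receptor complex and not for CD4, LCK or ZAP70. Outside the members, the co-receptor gene CD8A had 109 in the knockout and 94.4 in wild type. The kinase gene FYN had 127 in the knockout and 442 in wild type.

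**Figure D1:**
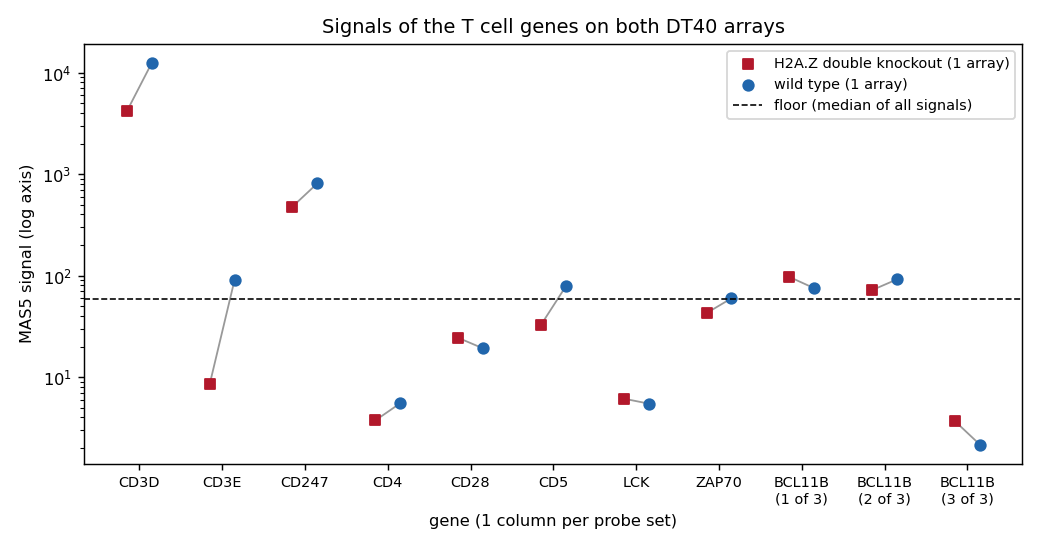
MAS5 signal (log axis) of the 11 probe sets of the T cell genes, 1 column per probe set, with the double knockout as red squares and wild type as blue circles, 1 array each; the dashed line is the floor of 58.3. Only CD3D and CD247 stand far above the floor, and both are lower in the knockout.

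CD3D, on chromosome 24, was the brightest member and the one with the largest difference measured on both arrays. Its signal was 4162 in the knockout and 12407 in wild type. It was therefore 2.98-fold lower in the knockout (log2 ratio -1.58), which leaves 33.5% of the wild-type signal. Both arrays were far above the floor, by 71.5-fold in the knockout and 213-fold in wild type. The difference was 6.40 times the SD between probe sets at this brightness. CD3D had 1 probe set, of a type that can detect several transcripts, so no second probe set bears on the value.

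Bright probe sets rarely differed this much. Of 429 other probe sets with a mean log2 signal within 0.25 of that of CD3D, 2 were at least 2-fold lower in the knockout (0.466%) and 17 at least 2-fold higher (3.96%). Of the 429, 0 were as low as CD3D, and 5 differed at least as much in the other direction. Among all 8042 genes above the floor on both arrays, 6.54% were at least 2-fold lower in the knockout and 3.21% at least 2-fold higher, and CD3D had the 132nd lowest ratio. The 3 genes with the ratio nearest to it, over these 2 arrays, were the endonuclease gene ENDOG (-1.57), the splicing factor gene CDC40 (-1.58) and PTS (-1.57), which encodes an enzyme of tetrahydrobiopterin synthesis.

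**Figure D2:**
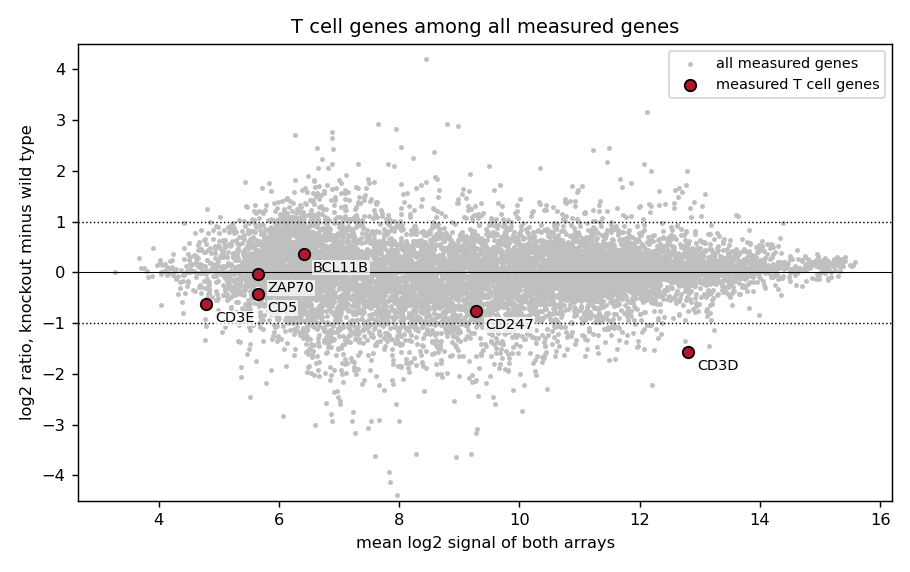
Log2 ratio, knockout minus wild type, against the mean log2 signal of both arrays, for all measured genes (grey) and the 6 measured T cell genes (red), with dotted lines at 2-fold; ratios are taken at the floor and 2 genes lie beyond the plotted range. CD3D, at -1.58, lies under the band of bright genes, while the other T cell genes lie inside the cloud at their brightness.

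CD247, on chromosome 1, encodes the zeta chain, which also serves receptors of natural killer cells. Its signal was 478 in the knockout and 809 in wild type, 8.20-fold and 13.9-fold above the floor. It was 1.69-fold lower in the knockout, with a log2 ratio of -0.76. This was 1.75 times the SD between probe sets at its brightness. Differences of this size were common there: of 1154 other probe sets of like mean signal, 159 were as low or lower, 8.32% were at least 2-fold lower and 3.47% at least 2-fold higher. Under every alternative setting it was between 1.53-fold and 1.69-fold lower.

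CD3E encodes the epsilon chain, which pairs with the gamma/delta chain, and lies beside CD3D on chromosome 24. Its signal was 8.50 in the knockout, under the floor, and 90.2 in wild type, 1.55-fold above it. It was therefore at least 1.55-fold lower in the knockout. The bound depends on where the floor lies, and reached at least 5.58-fold with the floor at the 25th percentile of signals. At this dimness large ratios occurred in both directions: of 2668 other probe sets of like mean signal, 25.3% were at least 2-fold lower in the knockout and 26.9% at least 2-fold higher, taking the signals without a floor, and 44 were as low as CD3E.

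The co-receptor and costimulatory genes among the members were dim. CD4, on chromosome 1, had a signal of 3.74 in the knockout and 5.51 in wild type, 15.6-fold and 10.6-fold under the floor. CD28, on chromosome 7, had 24.4 in the knockout and 19.2 in wild type. Both were under the floor on both arrays, so no fold is given. CD5, a scavenger receptor family protein of T cells and of some B cells, lies on chromosome 5. Its signal was 32.6 in the knockout, under the floor, and 78.1 in wild type, just above it. It was at least 1.34-fold lower in the knockout, or 2.40-fold lower with the floor at the 25th percentile, which both of its signals passed. Among 2907 other probe sets of like mean signal, 11.5% were at least 2-fold lower in the knockout and 16.3% at least 2-fold higher.

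Neither kinase among the members gave a clear signal. LCK, on chromosome 23, had 6.13 in the knockout and 5.48 in wild type, both far under the floor. ZAP70, on chromosome 28, had 42.7 in the knockout, under the floor, and 59.6 in wild type, 1.02-fold above it, so that its bound is at least 1.02-fold lower. The B cell counterparts LYN and SYK were bright, while BLK, also of the B cell list, was under the floor on both arrays. LYN, the SRC-family kinase of the B cell receptor, had 4454 in the knockout and 3286 in wild type, a log2 ratio of 0.44. SYK, the relative of ZAP70, had 2281 in the knockout and 4035 in wild type, a log2 ratio of -0.82, and its second probe set was also lower.

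BCL11B, a zinc finger factor on chromosome 5 that commits precursors to the T cell lineage in mammals, was the member with 3 probe sets. The brightest had 96.9 in the knockout and 75.1 in wild type, 1.29-fold higher in the knockout. The next had 71.9 in the knockout and 91.7 in wild type, 1.28-fold lower in the knockout. The third had 3.68 in the knockout and 2.16 in wild type, under the floor on both. The probe sets above the floor thus pointed in opposite directions, by less than the SD between probe sets at this brightness. Its relative BCL11A, a factor of B cell development, had 2532 in the knockout and 6430 in wild type and was 2.54-fold lower in the knockout (log2 ratio -1.34).

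Counted together, 6 of the 9 genes with a probe set were measured, against 72.7% of all genes with a probe set. Of the 6, 3 passed the floor on both arrays (CD3D, CD247 and BCL11B), as did 8042 of all 9486 measured genes. The other 3 passed it in wild type only (CD3E, CD5 and ZAP70), as did 6.31% of all measured genes. Of the 6, 1 was at least 2-fold lower in the knockout, where 6.62% of all 9486 measured genes were, and 0 were at least 2-fold higher, where 3.87% were. At 1.5-fold, 3 were lower (CD3D, CD247 and CD3E), against 15.9% of all measured genes, and 0 were higher, against 12.4%. The median log2 ratio was -0.53, beside 0.02 over all measured genes. The 3 genes that passed the floor in wild type only, CD3E among them, could differ in no other direction. The count of 5 lower genes (48.7% of all measured genes were lower), the count at 1.5-fold and this median therefore describe the measured genes and support nothing further. In bulk RNA, fewer cells with a transcript and less transcript per cell cannot be told apart.

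**Figure D3:**
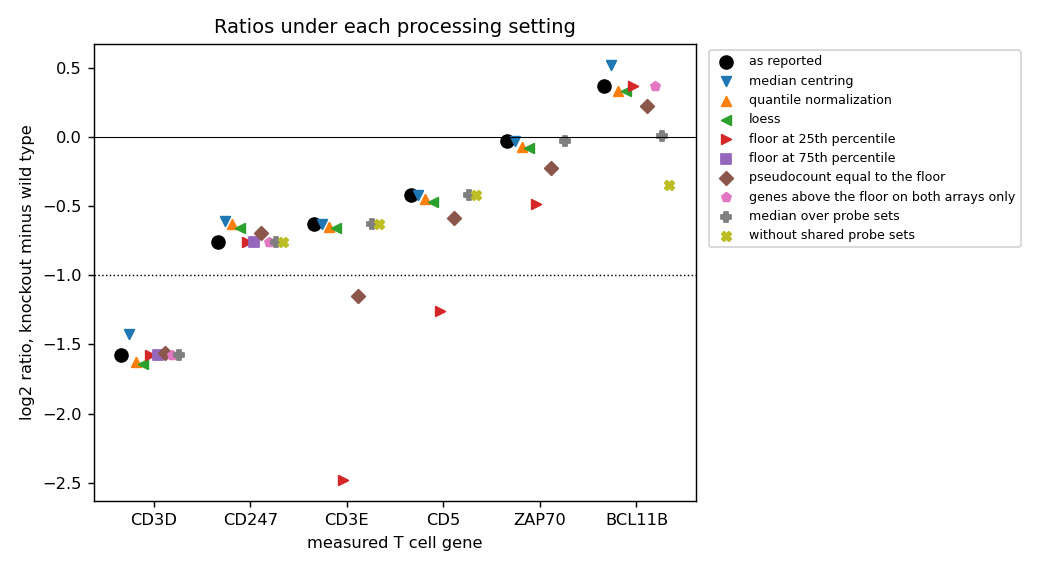
Log2 ratio, knockout minus wild type, of the 6 measured T cell genes as reported (black) and under each alternative setting that gave a value (coloured marks); the dotted line is 2-fold lower. CD3D stays between -1.64 and -1.42 and CD247 between -0.76 and -0.61, whereas CD3E, CD5 and ZAP70 move with the floor and BCL11B changes sign with the probe sets used.

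The genes beside the members had the following values. Next to the CD3E and CD3D pair on chromosome 24, the nearest measured genes on the far side of CD3D were ZW10, a mitotic checkpoint gene (log2 ratio -0.24), and the coatomer gene ARCN1 (0.004). On the far side of CD3E they were the adhesion genes MPZL2 (0.66, above the floor in the knockout only) and MPZL3 (0.27, likewise). On chromosome 1, CREG1 (0.04) and POU2F1 (-0.43) flanked CD247, and the next measured genes were RCSD1 (0.15) and ILDR2 (0.35). ZAP70 itself passed the floor by only 1.02-fold, in wild type. Beside it, 3 of the 4 nearest measured genes were above the floor in wild type only, against 6.31% of all measured genes. The dimmest of these had 63.9 in wild type, just above the floor. Up to 6 other coding genes lie between ZAP70 and these neighbours. ZAP70 is 1 of 10 members and was picked out here for the values beside it, so this share supports nothing further. The 2 nearest measured genes on each side of all 10 members were 36 different genes that are no member. Of these, 13 were lower and 23 higher in the knockout, with a median log2 ratio of 0.10. Over all measured genes, 48.7% were lower and the median was 0.02. Neighbours above the floor on only 1 array could differ in only 1 direction, so these counts support nothing further. Of the 36, 2 were at least 2-fold lower (5.56%, against 6.62% of all measured genes) and 1 at least 2-fold higher (against 3.87%). Those past 2-fold were MYO1F, at least 2.41-fold lower, and C19orf35, at least 3.77-fold lower, both near ZAP70, and GPR162 beside CD4, at least 2.86-fold higher. C19orf35 was 2.10-fold lower by the median of its probe sets, MYO1F 4.89-fold lower at the lower floor of the 25th percentile, and GPR162 1.94-fold higher with a pseudocount, under the 2-fold mark. Gene order was taken from the RefSeq annotation of chicken assembly GRCg7b.

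A wider list of T cell genes gave no common direction. Of 49 listed genes that are no member, 36 had a probe set and 18 were measured, of which 7 were lower and 11 higher in the knockout, 2 at least 2-fold lower and 0 at least 2-fold higher, with a median log2 ratio of 0.16. Of all genes with a probe set, 72.7% were measured, and of these 48.7% were lower, 6.62% at least 2-fold lower and 3.87% at least 2-fold higher. Among the 18 genes, 3 passed the floor in the knockout only and could only be higher. Another 1 passed it in wild type only and could only be lower. The lowest was FYN, a SRC-family kinase close to LCK, with 127 in the knockout and 442 in wild type, 3.47-fold lower in the knockout, and its second probe set was lower too. ETS1, a transcription factor of T and B cells, was 3.12-fold lower by its brightest probe set, but its 4 measured probe sets ran from -1.64 to -0.09. The next were TOX, a factor of T cell development, at least 1.92-fold lower, and EOMES, a factor of cytotoxic cells, with 124 in the knockout and 66.7 in wild type (log2 ratio 0.89). LEF1, the relative of TCF7, had 102 in the knockout and 49.3 in wild type, under the floor, and was at least 1.76-fold higher. CTLA4, the relative of CD28, was under the floor on both arrays, at 4.11 in the knockout and 5.44 in wild type.

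Most measured genes of the B cell list were lower, as CD3D was. Of 16 measured genes of that list, 13 were lower in the knockout and 7 at least 2-fold lower, with a median log2 ratio of -0.78, where 48.7% of all measured genes were lower and 6.62% at least 2-fold lower. This list was chosen with earlier results of these data known, so its counts and median describe the listed genes and support nothing further. The brightest probe sets of the 17 genes with a probe set summed to 44141 in the knockout and 71755 in wild type. The 4 farthest were CD74, which chaperones MHC class II (log2 ratio -1.44), BCL11A, the lymphoid factor IKZF1 (-1.34) and the phosphatase PTPN6 (-1.27). CD79B, the B cell counterpart of the CD3 chains, differed little (-0.19). The part of the lower values of this list in the value of CD3D was not tested.

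**Figure D4:**
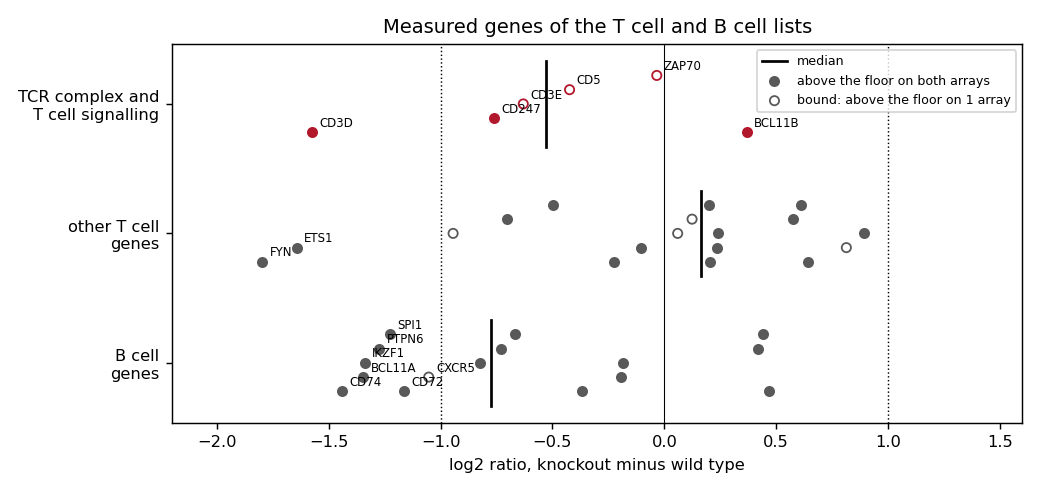
Log2 ratio, knockout minus wild type, of the measured members (red), of 18 other T cell genes and of 16 B cell genes (grey), with filled points above the floor on both arrays, open points for bounds, black bars for medians and dotted lines at 2-fold. CD3D lies among the lowest values, the other T cell genes spread around 0, and most B cell genes lie to the left.

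Markers of other cells were mostly dim. By the brightest probe set of each gene, more of the measured ones in each list were higher than lower in the knockout. Lower and higher genes were 1 and 3 in the natural killer list, 0 and 2 in the myeloid, 0 and 4 in the erythroid and 3 and 4 in the fibroblast list. Over all measured genes, 48.7% were lower. Genes above the floor in the knockout only, such as 3 of the erythroid ones, could only be higher. Of all genes with a probe set, 72.7% were measured. In the natural killer and cytotoxic list, whose cells also use CD247, 6 of 12 listed genes had a probe set and 4 were measured. The 6 summed to 606 in the knockout and 361 in wild type. GNLY, a cytotoxic granule gene, was at least 2.64-fold higher in the knockout. CD244 (log2 ratio 0.75) and FCER1G (0.70) were higher too, each by 1 measured probe set. The wild-type signal of CD244, 73.0, was not far above the floor. The adhesion gene NCAM1 was 1.65-fold lower by its brightest probe set, whose knockout signal of 59.3 was just above the floor. By the median of its probe sets NCAM1 was 1.35-fold lower. Both arrays held RNA of DT40 clones, and any link of the genes of this list with the value of CD247 was not tested. For myeloid and thrombocyte markers, 7 of 12 had a probe set and 2 were measured, with sums of 238 in the knockout and 206 in wild type. Of 10 listed erythroid markers, 4 had a probe set and all 4 were measured, with sums of 9829 in the knockout and 8868 in wild type. Nearly all of this was the transferrin receptor gene TFRC, which dividing cells also use. TFRC counted as higher by its brightest probe set (log2 ratio 0.13), but its other measured probe set was at -1.11. The globin gene HBAD was at least 2.26-fold higher in the knockout. Fibroblast and stromal markers had 7 of 10 measured, with sums of 1089 in the knockout and 922 in wild type, and of these FN1 was 2.55-fold higher and COL1A1 at least 2.11-fold lower in the knockout. These folds moved with the floor: GNLY was 5.41-fold and HBAD 3.74-fold higher and COL1A1 5.67-fold lower at the 25th percentile, where all their signals passed it, and the bound of FN1 was 1.02-fold at the 75th.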

How the data were processed

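Total RNA of 2 DT40 clones was biotin-labelled for 1-colour arrays. The deposited values are intensities on a linear scale, 1 per probe set and array, made by the authors with MAS5 per the submitters' processing notes; no version, scaling target or detection call is stated. Groups came from the genotype labels. Of 38535 probe sets, 96 were controls, 27178 had 1 gene symbol in the platform annotation, 177 several (naming none here) and 11180 none. Gene IDs of 26863 were found in RefSeq's GRCg7b genes, used only for names, chromosomes and gene order, since no build is named.

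Signals under the floor (the 50th percentile) were set to it before log2. Each gene took the probe set of highest mean log2 signal. Named genes were all members, both H2A.Z genes, B cell counterparts or relatives of members (LEF1 and CTLA4 among them), the 4 farthest genes of a described list, the 3 nearest to CD3D, and neighbours past 2-fold; the neighbours of CD3D, CD3E and CD247 were named whatever their values, and other markers after their values were seen. The members, lists and tests were chosen with earlier results of these data known. The 9 alternatives changed scaling (median centring, quantile, loess with span 0.3), the floor (25th or 75th percentile, a pseudocount equal to it), the requirement of both arrays, or the probe sets per gene. The code was tested on simulated data. Computation used Python 3.11.15, pandas 2.3.3 and statsmodels 0.14.6.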

Additional observations from a re-analysis of the deposited data

How the results depend on the processing

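CD3D was at least 2-fold lower in the knockout under all 8 alternatives that gave it a value (log2 ratio -1.64 to -1.42), and CD247 was lower under all 9. A further setting left out probe sets of types that can detect several transcripts or several sequences. CD3D, whose probe set is of the type for several transcripts, and ZAP70 then had no value. For lack of a CD3D value, 0 measured members were at least 2-fold lower there, and BCL11B turned to -0.35. The floor decided the dim genes. At the 25th percentile CD3E had a bound of -2.48, CD5 -1.26 and ZAP70 -0.48, and 3 members were at least 2-fold lower. With a pseudocount CD3E was at -1.15 and the count was 2. At the 75th percentile only CD3D and CD247 were measured, with a median of -1.17. The other T cell genes had a median of -0.36 at that floor, with 1 at least 2-fold lower. At the 25th percentile 4 of them were at least 2-fold lower and 4 higher, with all probe sets used 1 was lower, and under median centring 1 was higher. Over all genes, 628 were at least 2-fold lower and 367 higher as reported (63.1% lower). These counts were 1222 and 1172 at the lower floor (51.04% lower), and 292 and 130 at the higher. Under median centring they were 469 and 553 (45.9% lower). Despite its name, that setting did not centre the gene ratios, whose median it moved from 0.02 to 0.16. The turn towards higher genes under it came with this upward shift of the ratios. Beyond the floors, probe sets and scaling that set these counts, the cause was not tested. No paired analysis was possible because there was 1 array per group.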

Other observations

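Probe sets of T cell receptor chains were picked after their values were seen, and most were under the floor on both arrays. The probe set annotated to TRBV6-5, a beta chain variable segment, had 884 in the knockout and 826 in wild type. Of 19 probe sets annotated to TARP, a transcript of the gamma chain locus, 2 were above the floor on both arrays, with 249 in the knockout and 242 in wild type for the brighter, and 17 were under it on both. The gene names are those of the array annotation, and most of these probe sets are of types that can detect several sequences.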
